A study of Mus musculus with 9 samples.

Results

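The right ventricle arrays numbered 3 were compared with the arrays numbered 1 and 2, the number being the one that ends each sample's title. The split was proposed with earlier results of these data known, so no p-value here is that of a split set in advance. The arrays numbered 3 were 3 of 9, 1 from each group, and the other 6 arrays were numbers 1 and 2 of the same groups. All samples were total RNA of right ventricles of male mice, hybridised to Affymetrix GeneChip whole-transcript arrays after 50 days on a diet. The groups, with 3 arrays each, were mice labelled Lrat-/- on a diet deficient in vitamin A, with no retinol palmitate added (LRAT_VAD), mice labelled Lrat-/- on the same diet with 250000 U/kg retinol palmitate (LRAT_VAS) and wild-type mice on that supplemented diet (WT_VAS). All mice were kept on 12 h of light and 12 h of dark, and hearts were placed in RNAlater before the right ventricle was cut from the left along the septum. Strain, age, hour of dissection and the part of Lrat that is deleted are not given in the sources used here. No label says what the number marks, nor that each array came from a separate animal, so each p-value reflects only how these samples scatter, and that scatter may be technical.

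Values are the authors' RMA signals on a log2 scale. RMA corrects background, equalises the distributions of the arrays and summarises the probes of each probe set. Each of 22061 named genes was represented by its brightest probe set, and differences are arrays numbered 3 minus arrays numbered 1 and 2 in log2 units, from a limma model with group as a covariate. A gene was called when its Benjamini-Hochberg adjusted p over all genes was under 0.05. Where 3 values are listed for the arrays numbered 3, they are in the order LRAT_VAD, LRAT_VAS and WT_VAS. The number of arrays limits the precision of every value. In whole tissue, fewer cells of a type and less RNA per cell cannot be told apart.

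Several of the genes described here belong to the circadian clock, in which CLOCK or NPAS2 pairs with ARNTL (BMAL1) and binds E-boxes to switch on the Per, Cry, Nr1d and Dbp genes, whose products then shut that pair down or act on further targets. The clock runs in cardiac muscle as in most tissues, so the level of each of its transcripts depends on the hour at which a heart is taken. Glucocorticoids, which have a daily rhythm of their own, act on the heart through the glucocorticoid receptor and raise transcripts such as Klf15, Zbtb16, Per1 and Fkbp5.

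Markers of ventricular muscle were the brightest of the cell type lists. Myh6 (alpha-myosin heavy chain) had log2 signals of 13.77 to 13.96 and Myl2 (ventricular light chain) 13.54 to 13.79 over the 9 arrays, and the 18 ventricular markers had a median level of 13.45. Lrat, the enzyme that esterifies retinol for storage, read higher in the arrays labelled Lrat-/- than in the wild-type arrays. It had 7.81, 7.58 and 7.69 in LRAT_VAD arrays 3, 1 and 2, and 8.09, 7.88 and 7.64 in LRAT_VAS arrays 3, 1 and 2. The wild-type arrays 3, 1 and 2 had 6.43, 6.35 and 6.24. These levels go against the genotype labels, as far as the probe set reads the deleted part, so groups are named as they are labelled. Between arrays numbered 3 and the others, Lrat differed by 0.21 ± 0.07 (SE, n = 3 and 6, limma adjusted p = 0.132) and did not pass the test.

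In a principal component analysis of all genes with group means removed, the arrays numbered 3 lay together at one end of the first component, which held 37.8% of the within-group variance. Their scores were 14.6, 18.4 and 20.1, while the 6 arrays numbered 1 and 2 scored -14.8 to -5.10. The second component, with 23.3% of the variance, was led by WT_VAS array 2 at 23.3, with WT_VAS arrays 1 and 3 at -11.3 and -12.0. The number 3 term took 36.5% of the within-group sum of squares with 1 of 6 degrees of freedom, which is 16.7% of them, and 26.7% of the total sum of squares. Because the split was proposed with earlier results of these data known, these shares describe it and do not test it. Within-group variation was 73.1% of the total. Across genes, which are not independent replicates, the difference between array 3 and arrays 1 and 2 correlated at 0.387 between LRAT_VAD and LRAT_VAS, 0.275 between LRAT_VAD and WT_VAS, and 0.303 between LRAT_VAS and WT_VAS.

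**Figure D1:**
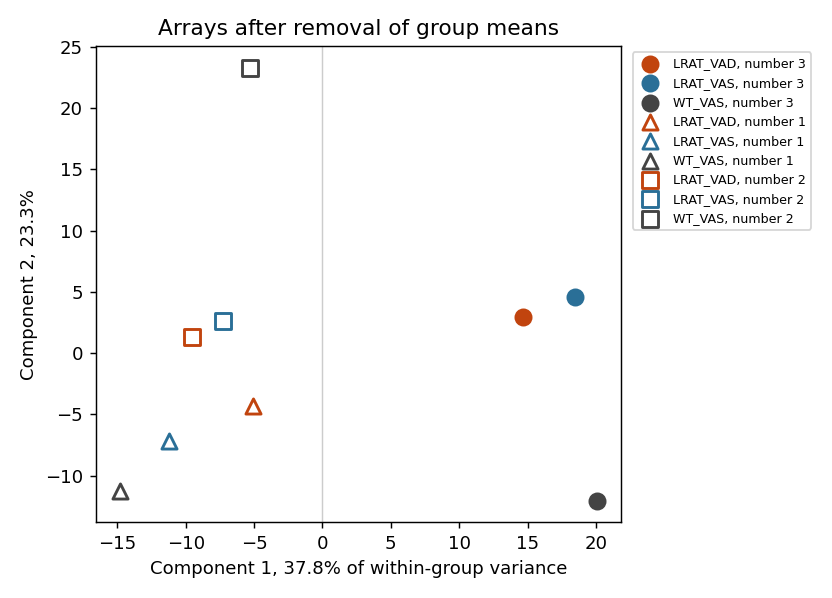
Scores of the 9 arrays on the first (x axis) and second (y axis) principal component of log2 signals with group means removed, in arbitrary units, with filled points for arrays numbered 3 and open points for numbers 1 and 2. The 3 filled points lie at 14.6 to 20.1 on the first component, and all open points lie below 0.

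Of the 22061 genes, 750 were called (3.4%), of which 452 were higher (2.05%) and 298 lower (1.35%) in the arrays numbered 3. With the numbers 1, 2 and 3 as separate levels of a block, 311 genes were called, 196 higher and 115 lower. In all 750 the array numbered 3 lay outside both other arrays of its group, in the same direction, in LRAT_VAD, LRAT_VAS and WT_VAS. That separation was met by 4873 genes in all (22.1%), 2714 higher (12.3%) and 2159 lower (9.79%). An unadjusted p under 0.05 was reached by 5469 genes (24.8%), of which 3179 were higher (14.4%) and 2290 lower (10.4%). The called differences had a median size of 0.38, and 8 were over 1. No gene passed limma's adjusted test of an interaction between group and number 3, while 4080 (18.5%) had an unadjusted interaction p under 0.05, with 3 residual degrees of freedom.

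The count of calls depended on single arrays. It was 19, 17 and 70 without LRAT_VAD array 1, 2 and 3, then 22, 10 and 2 without LRAT_VAS array 1, 2 and 3, and 400, 1184 and 382 without WT_VAS array 1, 2 and 3. After quantile normalization of the genes it was 61 (0.277% of genes), 35 higher (0.159%) and 26 lower (0.118%), after cyclic loess 38 (0.172%), 22 higher (0.0997%) and 16 lower (0.0725%), and with the arrays centred on their medians 760, of which 560 were higher and 200 lower. None of the 65 called genes named here by rule changed sign under any of 22 alternative settings. Where arrays were only left out or reweighted this was fixed in advance, because array 3 lay outside both others in every group. Of the 65, 16 kept the call after quantile normalization and 11 after cyclic loess, and none against numbers 1 alone or numbers 2 alone.

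The direction of the difference went with brightness. Among 673 genes with a mean log2 signal under 4, 94.1% read higher in the arrays numbered 3, with a median difference of 0.23, and 102 were called higher and 0 lower. The median difference was 0.03 among genes from 6 to 7 and -0.05 among genes from 8 to 9. Among 337 genes of at least 12 the median was -0.07, 23.4% read higher, and 0 were called higher and 7 lower. Each group showed the same order, the medians under 4 being 0.17 in LRAT_VAD, 0.33 in LRAT_VAS and 0.13 in WT_VAS, and those of at least 12 being -0.07, -0.06 and -0.09. Over all genes, 54.1% read higher and the median was 0.01. Cyclic loess, which fits out such a trend by construction, left medians between -0.004 and 0.02 in every brightness class.

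**Figure D2:**
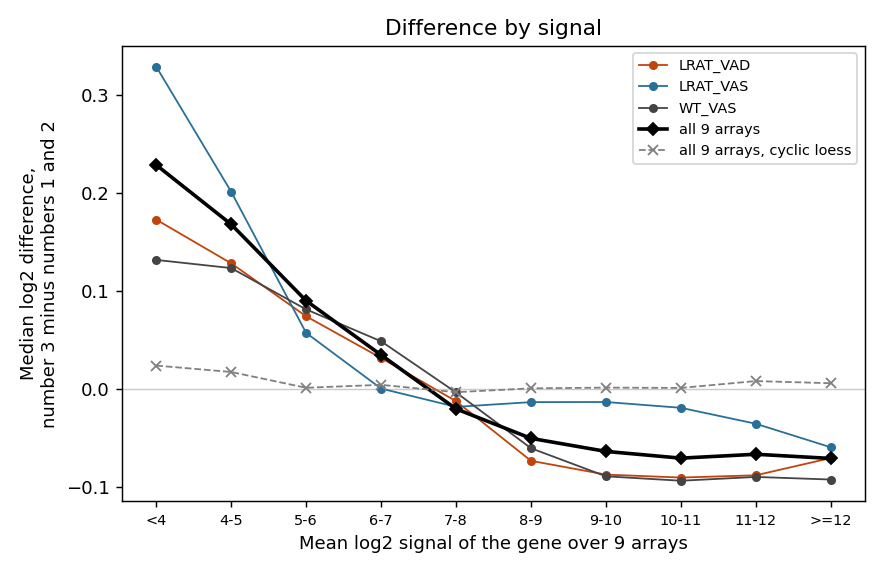
Median log2 difference, arrays numbered 3 minus arrays numbered 1 and 2 (y axis), for genes in classes of mean log2 signal over the 9 arrays (x axis), with a coloured line for each group, a black line for all 9 arrays and a dashed grey line after cyclic loess. The black line is at 0.23 in the dimmest class and -0.07 in the brightest, while the dashed line stays between -0.004 and 0.02.

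The arrays numbered 3 had a narrower spread of signals. The standard deviation across genes was 1.94, 1.93 and 1.92 in the arrays numbered 3, against 1.99 to 2.02 in the others (2-sided exact permutation test within groups, p = 0.037, the smallest of 27 arrangements, 0.111 after adjustment over 12 array measures). Negative control probe sets averaged 5.68, 5.69 and 5.70 in the arrays numbered 3, against 5.37 to 5.71 in the others (exact permutation p = 0.407). Positive control probe sets averaged 9.16, 9.19 and 9.14 in the arrays numbered 3, against 9.17 to 9.22 in the others (exact permutation p = 0.0741). The part of this difference in spread in the calls was not tested. In the authors' deposited table, whose header names scan date as a factor, the highest scan date sum of squares was 1.82e-12. Over all 22061 genes the error sum of squares of that table had a median of 0.0914. In the deposited signals the within-group sum of squares had a median of 0.103, or 0.0614 after the number 3 term. For the 750 called genes the medians were 0.067 in that table, 0.335 within groups and 0.0420 after the number 3 term. These genes were selected for a large number 3 term. The names of 9 deposited signal columns that match no sample fall into a set of 6 and a set of 3 by the date they carry, and no label ties them to arrays. Which arrays shared a scan date is not given in the sources used here, so its part in the difference was not tested.

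Per2 and Clock were each among the 20 called and named genes with the largest differences in their direction. Of 22 genes measured in the clock list, Per2 rose and Clock and Ppp1r3c fell, 3 of 22 against 3.4% of all genes. In all 3 groups, array 3 lay outside arrays 1 and 2 on the same side for 5 higher and 6 lower genes of the list. Over all genes, 12.3% were higher and 9.79% lower in this way. The median difference of the list was 0.05, with 13 of 22 above 0, beside 0.01 over all genes, and it was 0.11 after cyclic loess. The list was drawn up with earlier results of these data known.

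Clock encodes the partner that binds DNA together with ARNTL. Its log2 signal was 8.84, 8.85 and 8.98 in the arrays numbered 3, against 9.61 to 9.97 with a median of 9.77 in the arrays numbered 1 and 2, so the 2 sets did not overlap. The difference was -0.89 ± 0.09 (SE, n = 3 and 6, limma adjusted p = 0.0129), and Clock was still called after quantile normalization and cyclic loess. The Clock call was lost with array weights, against numbers 1 or numbers 2 alone, and without LRAT_VAD array 3, LRAT_VAS array 2 or LRAT_VAS array 3. Per2, a repressor that acts on that pair, moved the other way, with 9.06, 9.07 and 8.92 in the arrays numbered 3, against 7.47 to 8.59 with a median of 8.07 in the arrays numbered 1 and 2. All 3 arrays numbered 3 stood above all 6 others, by 0.98 ± 0.14 on average (adjusted p = 0.0225). The Per2 call was lost after cyclic loess (adjusted p = 0.051), with array weights and without LRAT_VAD array 1, 2 or 3, LRAT_VAS array 2 or 3, or WT_VAS array 3. Ppp1r3c, a glycogen-targeting subunit of protein phosphatase 1, had 9.60, 9.87 and 9.83 in the arrays numbered 3, against 10.04 to 10.63 in the others, a difference of -0.57 (adjusted p = 0.0206).

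The remaining clock genes did not pass the test, and those given here were chosen after their values were seen. Arntl had 6.61, 6.34 and 6.37 in the arrays numbered 3, against 6.54 to 9.11 with a median of 7.90 in the others, a difference of -1.43 ± 0.37 (adjusted p = 0.0695). The sets overlap because LRAT_VAS array 1 read 6.54, within the range of the arrays numbered 3. By group the Arntl difference was -1.10, -0.73 and -2.47 in LRAT_VAD, LRAT_VAS and WT_VAS. Npas2, which can stand in for CLOCK, had 7.12, 7.33 and 7.49 in the arrays numbered 3, against 7.36 to 8.52 in the others (-0.68, adjusted p = 0.0699), with LRAT_VAS array 1 again the lowest of the others at 7.36. Nr1d1 (REV-ERB alpha), a repressor of Arntl, differed by -0.45 (adjusted p = 0.0646), and Bhlhe40, a repressor of the same pair, by -0.37 (adjusted p = 0.0544).

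On the other side stood Per1, with 9.73, 9.67 and 9.84 in the arrays numbered 3, against 8.31 to 9.35 in the others, sets that did not overlap although the test was not passed (0.70, adjusted p = 0.0633). Hlf and Tef, PAR leucine zipper factors driven by the clock, differed by 0.57 (adjusted p = 0.0734) and 0.52 (adjusted p = 0.134). Dbp, of the same family, differed by 0.66 (adjusted p = 0.179) and Ciart, a repressor of CLOCK and ARNTL, by 0.97 (adjusted p = 0.19). Their differences by group were uneven: Ciart had 0.74, -0.07 and 2.24 in LRAT_VAD, LRAT_VAS and WT_VAS, and Dbp had 0.38, 0.11 and 1.48. The wild-type difference was the largest in size of the 3 for Arntl, Per1, Hlf, Tef, Dbp and Ciart. In LRAT_VAS, array 1 read 10.82 for Dbp and 10.34 for Ciart.

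**Figure D3:**
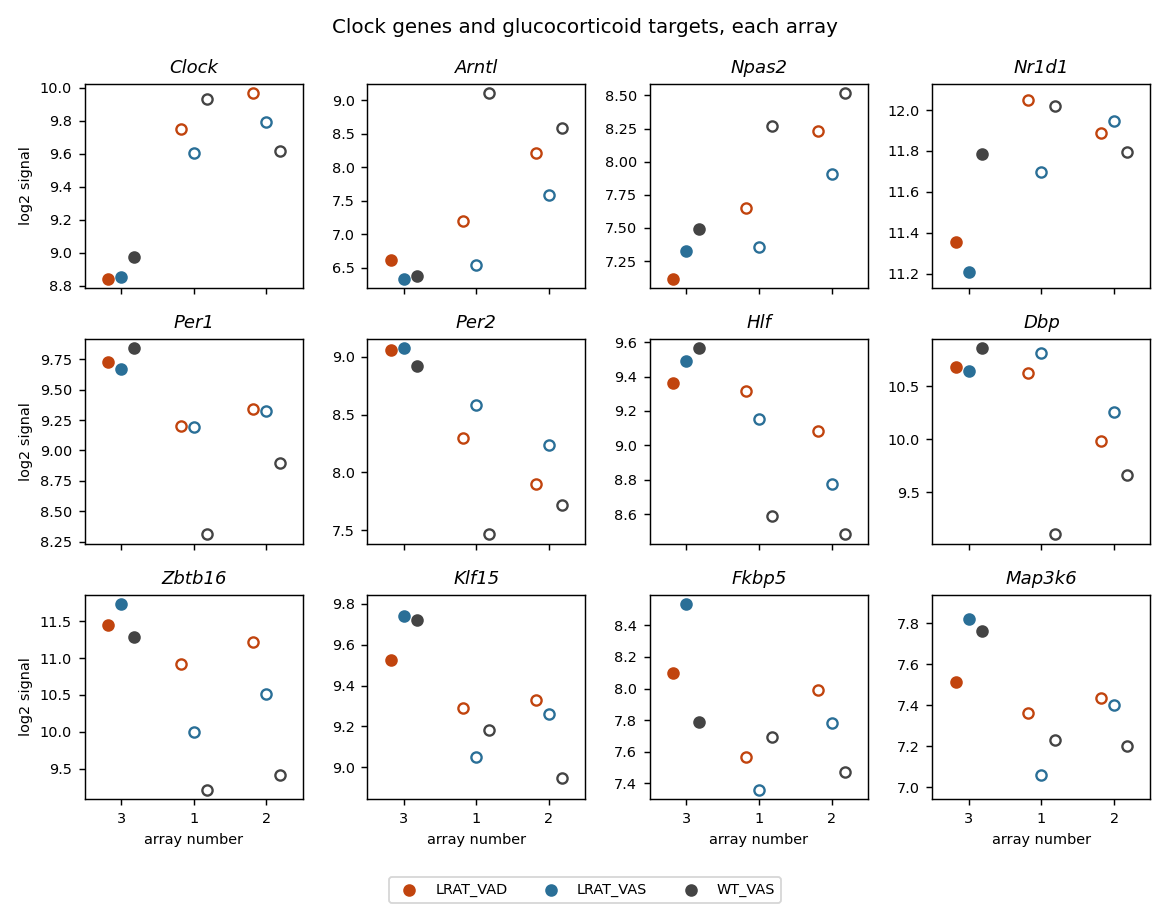
Log2 signal (y axis) of 12 clock and glucocorticoid target genes in each array, by array number (x axis, number 3 at the left) and coloured by group, with filled points for number 3. Clock is lower in all 3 filled points, Per1, Per2 and Zbtb16 are higher, and LRAT_VAS array 1 lies near the filled points for Arntl and Npas2.

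The promoters of 4 of these genes are printed to show where the E-box bound by CLOCK and ARNTL occurs in them. Each is the 250 bases before the start site in RefSeq, build GRCm38.p6, written 5′ to 3′ on the gene's strand, and capitals mark the E-box CACGTG, a palindrome that reads the same on both strands. Per1 (chr11:69098699-69098948, plus strand) holds 1, Klf15 (chr6:90462326-90462575, plus strand) 2, Ciart (chr3:95882229-95882478, minus strand) 3 and Clock (chr5:76304793-76305042, minus strand) 0. Among genes of the clock list not printed, Ppp1r3c, which fell, holds 1, Tef holds 1 and Dbp and Nr1d1 hold 0. A later start site of Per1 holds 0, so the count does not follow the direction.
Per1: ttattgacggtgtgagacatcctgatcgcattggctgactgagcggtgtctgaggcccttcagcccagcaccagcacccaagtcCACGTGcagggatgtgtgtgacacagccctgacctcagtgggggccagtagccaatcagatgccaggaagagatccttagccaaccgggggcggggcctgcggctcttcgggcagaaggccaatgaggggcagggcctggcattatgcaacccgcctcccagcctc
Klf15: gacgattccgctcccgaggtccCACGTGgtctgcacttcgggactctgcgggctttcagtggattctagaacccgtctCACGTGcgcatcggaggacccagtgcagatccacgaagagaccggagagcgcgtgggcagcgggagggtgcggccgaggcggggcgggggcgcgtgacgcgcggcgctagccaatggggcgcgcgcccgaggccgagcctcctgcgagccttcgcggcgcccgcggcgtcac
Ciart: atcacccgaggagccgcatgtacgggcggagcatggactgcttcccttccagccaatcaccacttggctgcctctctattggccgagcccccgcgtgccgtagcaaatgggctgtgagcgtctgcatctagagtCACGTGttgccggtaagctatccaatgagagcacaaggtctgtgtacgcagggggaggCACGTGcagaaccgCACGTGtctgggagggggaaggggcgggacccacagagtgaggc
Clock: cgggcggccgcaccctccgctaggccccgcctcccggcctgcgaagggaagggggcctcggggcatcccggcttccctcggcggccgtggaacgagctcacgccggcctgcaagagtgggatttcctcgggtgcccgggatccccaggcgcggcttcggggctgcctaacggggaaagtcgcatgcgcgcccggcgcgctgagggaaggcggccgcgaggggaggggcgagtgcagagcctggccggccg
Over 16231 genes with a promoter window (250 bases before to 50 after the start), 8.31% hold the E-box, beside 5.86% of 307 promoters of genes called higher and 9.58% of 240 of genes called lower. Among genes with a mean log2 signal of at least 7, E-box shares were 8.51% of 47 called higher and 9.38% of 224 called lower. Of 8793 not called, 10.4% held it. A match is a description of the letters, and its absence says only that they are not in this window.

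Of 25 glucocorticoid targets measured, Zbtb16, Klf15 and Arrdc2 rose and none fell, 3 of 25 against 3.4% of all genes. The list's median difference was 0.14, with 18 of 25 above 0, beside 0.01 and 54.1% over all genes, and it was 0.14 after cyclic loess. By group the median was 0.18 in LRAT_VAD, 0.30 in LRAT_VAS and -0.003 in WT_VAS.

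Zbtb16 (PLZF, a transcription factor induced by glucocorticoids) had the largest difference of the called genes named here, with 11.45, 11.74 and 11.28 in the arrays numbered 3, against 9.21 to 11.22 with a median of 10.26 in the arrays numbered 1 and 2. Every array numbered 3 stood above the other 6, and the difference was 1.28 ± 0.26 (SE, n = 3 and 6, adjusted p = 0.0405), although it was 0.39, 1.48 and 1.97 in LRAT_VAD, LRAT_VAS and WT_VAS. Klf15, a Krüppel-like factor that governs nutrient use in heart muscle and follows both the clock and glucocorticoids, had 9.53, 9.74 and 9.72 in the arrays numbered 3, against 8.95 to 9.33 in the others (0.49 ± 0.10, adjusted p = 0.0408). Arrdc2, an arrestin-domain protein, had 7.86, 7.75 and 7.94 in the arrays numbered 3, against 7.19 to 7.55 in the others (0.40 ± 0.09, adjusted p = 0.0481). None of the 3 was called after quantile normalization or cyclic loess, nor with the block, where the adjusted p was 0.0505 for Zbtb16, 0.061 for Klf15 and 0.066 for Arrdc2.

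Members that did not pass, chosen after their values were seen, lay on both sides of 0. Map3k6 differed by 0.42 (adjusted p = 0.0662), Fkbp5 (a co-chaperone of the receptor) by 0.50 (adjusted p = 0.118) and Glul (glutamine synthetase) by 0.33 (adjusted p = 0.081). Cebpd differed by -0.35 (adjusted p = 0.0921), and Tsc22d3 (GILZ), a standard target, by 0.07 (adjusted p = 0.591).

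Adh1, the alcohol dehydrogenase that oxidises retinol to retinaldehyde, rose in the arrays numbered 3. Its log2 signal was 10.36, 10.57 and 10.61 in the arrays numbered 3, against 9.21 to 9.59 with a median of 9.48 in the arrays numbered 1 and 2. The sets did not overlap, and the difference was 1.06 ± 0.09 (SE, n = 3 and 6, adjusted p = 0.00782). The call was lost without LRAT_VAS array 3 and against numbers 1 or numbers 2 alone, and held under every other setting. Aldh1a2, which makes retinoic acid from retinaldehyde, fell: it had 6.59, 6.83 and 7.08 in the arrays numbered 3, against 6.95 to 7.60 in the others, sets that overlap across groups (-0.41 ± 0.09, adjusted p = 0.0486, but 0.0678 with the block). Its call was kept in 4 of 21 alternatives, and was lost under quantile normalization, cyclic loess and every array left out except WT_VAS array 2. These were the only calls among 33 retinoid genes, beside 3.4% called of all genes. The list's median difference was 0.03 (0.04 after cyclic loess) with 22 of 33 above 0, beside 0.01 and 54.1% over all genes. The receptor gene Rarb, itself a retinoic acid target, differed by -0.26 (adjusted p = 0.134) and the endothelial retinol binding protein gene Rbp7 by 0.50 (adjusted p = 0.0871), both chosen after their values were seen.

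In all, 38 genes were called on the deposited signals, after quantile normalization and after cyclic loess, 22 higher and 16 lower, and Adh1 and Clock were among them. Rpl5, a protein of the large ribosomal subunit, had 10.73, 10.74 and 10.38 in the arrays numbered 3, against 9.80 to 10.17 with a median of 10.05 in the others (0.61 ± 0.05, adjusted p = 0.00782), with no overlap. Cetn4, a centrin, had 8.22, 7.89 and 8.10 in the arrays numbered 3, against 7.19 to 7.33 in the others (0.81, adjusted p = 0.00975), and was the only one of the 65 named calls to be kept whichever single array was left out. Among genes that fell, Eef1akmt2, a lysine methyltransferase of elongation factor 1A, had 6.02, 6.16 and 6.001 in the arrays numbered 3, against 6.64 to 6.77 in the others (-0.64, adjusted p = 0.00874). Itgb6, the integrin chain that pairs with alpha V, had 9.72, 9.87 and 9.65 in the arrays numbered 3, against 10.24 to 10.39 in the others (-0.57, adjusted p = 0.0147). Both fell without any overlap of the sets.

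A few more of these 38, chosen after their values were seen, are genes with a known place in the vessel wall, the endosome or transcription. Edn1 (endothelin 1, a constrictor peptide of the endothelium) fell, with 7.23, 7.41 and 7.52 in the arrays numbered 3, against 7.77 to 8.03 in the others (-0.44, adjusted p = 0.0225). Cd63, a tetraspanin of late endosomes, rose, with 9.98, 9.90 and 9.80 in the arrays numbered 3, against 9.13 to 9.45 in the others (0.61, adjusted p = 0.0206). Nfic, a nuclear factor I transcription factor, rose, with 10.89, 10.93 and 11.02 in the arrays numbered 3, against 10.17 to 10.50 in the others (0.56, adjusted p = 0.0225). In each of the 3 genes the arrays numbered 3 stood clear of all others.

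Further named genes had large differences. Slc41a3, of the SLC41 family of magnesium transporters, fell, with 9.99, 9.82 and 9.77 in the arrays numbered 3, against 10.24 to 11.27 in the others (-1.04, adjusted p = 0.027). Slc1a5, a glutamine transporter, had 8.99, 9.04 and 9.03 in the arrays numbered 3, against 7.87 to 8.63 in the others (0.73, adjusted p = 0.0264). Neither gene overlapped between the sets. Tspan4 (a tetraspanin, 0.75), Gsta3 (a glutathione transferase, 0.69), Fmo2 (a flavin monooxygenase, 0.68) and Amy1 (an amylase, 0.66) also rose, with adjusted p of 0.049, 0.0298, 0.0204 and 0.0206, and that of Tspan4 was 0.0575 with the block. Glo1, which clears methylglyoxal, fell by 0.60, but its sets overlap because WT_VAS array 3 read 10.65 where the lowest of the others read 10.56. Scoc and Arl5a, which act at the Golgi, fell by 0.92 and 0.68, and Dstn (destrin, which severs actin filaments) by 0.55.

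The heat shock, unfolded protein, hypoxia and interferon lists had medians below 0. Their calls are given beside 3.4% called of all genes, 2.05% higher and 1.35% lower. Of 24 heat shock and chaperone genes, Chordc1, an HSP90 co-chaperone, fell and none rose, and 4 of 24 differences were above 0. The list's median was -0.16 (-0.09 after cyclic loess). Chordc1 had 8.56, 8.42 and 8.06 in the arrays numbered 3, against 8.79 to 9.004 in the others (-0.51 ± 0.10, adjusted p = 0.0388, but 0.0575 with the block), with no overlap. The small heat shock genes Hspb1 and Hspb8 differed by -0.49 (adjusted p = 0.0582) and -0.30 (adjusted p = 0.0668), and Hspe1 (mitochondrial HSP10) by 0.44 (adjusted p = 0.172), all chosen after their values were seen. Of 26 unfolded protein response genes Asns (asparagine synthetase) fell (-0.36, adjusted p = 0.0268), and the median was -0.09 (-0.04 after cyclic loess).

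Of 26 hypoxia-response genes Adm fell and none rose, with a list median of -0.10 (-0.05 after cyclic loess) and 7 of 26 above 0. Adm (adrenomedullin, a vasodilator peptide) had 7.52, 7.33 and 7.32 in the arrays numbered 3, against 7.77 to 8.02 in the others (-0.45 ± 0.08, adjusted p = 0.0267), with no overlap. The list's mean level, centred on each gene, was -0.11 to -0.007 in the arrays numbered 3 and 0.01 to 0.05 in the others. Vegfa (the main endothelial growth factor) differed by -0.25 (adjusted p = 0.0574), P4ha1 (a collagen prolyl hydroxylase) by -0.44 (adjusted p = 0.0695) and Epas1 (HIF-2 alpha) by 0.24 (adjusted p = 0.0754), chosen after their values were seen. Of 45 interferon-response genes 0 were called by limma. At an unadjusted p under 0.05, 1 was higher and 7 lower, beside 14.4% and 10.4% of all genes. The list's median was -0.11 (-0.10 after cyclic loess), and Trim30a and Ifi44, the members with the lowest p, differed by -0.37 (adjusted p = 0.0611) and -0.74 (adjusted p = 0.074). Of 24 antigen presentation genes H2-Q2 alone rose (0.34, adjusted p = 0.0417, but 0.0633 with the block), while the list's median was -0.13 (-0.06 after cyclic loess).

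For heart muscle genes, the calls in each list are given beside 3.4% called of all genes, 2.05% higher and 1.35% lower. Gja1 (connexin 43, the gap junction protein that couples ventricular myocytes) had 12.07, 12.05 and 12.32 in the arrays numbered 3, against 12.48 to 12.61 with a median of 12.52 in the others. The sets did not overlap and the difference was -0.38 ± 0.07 (SE, n = 3 and 6, adjusted p = 0.0291). The Gja1 call was kept in 11 of 22 alternatives. It was lost after quantile normalization (adjusted p = 0.118), after cyclic loess (adjusted p = 0.104), and when any LRAT_VAD or LRAT_VAS array was left out. Kcnj2, the inward rectifier channel that sets the resting potential, had 9.28, 9.29 and 8.97 in the arrays numbered 3, against 9.35 to 9.78 in the others (-0.36 ± 0.07, adjusted p = 0.0408). Its call was kept in 6 of 22 alternatives, and lost after quantile normalization (adjusted p = 0.101) and cyclic loess (adjusted p = 0.105). Gja1 and Kcnj2 were the 2 calls, both lower, among 36 ion channel and conduction genes, whose median of -0.03 turned to 0.03 after cyclic loess. Sri (sorcin, a calcium-binding modulator of the ryanodine receptor) fell by 0.35 (adjusted p = 0.049, but 0.0642 with the block, and kept in 1 of 22 alternatives), the single call among 34 calcium handling genes, whose median of -0.03 turned to 0.01.

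Rcan1, a calcineurin inhibitor and target of calcineurin signalling, was the 1 call among 19 natriuretic and fetal programme genes, beside 3.4% of all genes. It had 10.27, 10.36 and 10.27 in the arrays numbered 3, against 10.52 to 11.03 in the others (-0.42 ± 0.09, adjusted p = 0.042, but 0.0627 with the block), with no overlap. Nppa (atrial natriuretic peptide), chosen after its values were seen, had 9.65, 10.04 and 10.65 in the arrays numbered 3, against 9.84 to 11.58 with a median of 11.36 in the others. The sets overlap, and the difference of -0.81 ± 0.20 did not pass (adjusted p = 0.0592), being -0.21, -1.50 and -0.72 in LRAT_VAD, LRAT_VAS and WT_VAS. The list's median was -0.10 (-0.13 after cyclic loess). Of 44 sarcomere and Z-disc genes 0 were called by limma. At an unadjusted p under 0.05, 4 were higher and 5 lower, beside 14.4% and 10.4% of all genes. In that list Tnni3 (cardiac troponin I) had the lowest p, at -0.20 (adjusted p = 0.0691).

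In the extracellular matrix list of 58 genes, 1 rose and 1 fell, beside 3.4% called of all genes. Timp3, an inhibitor of matrix metalloproteinases, had 11.54, 11.46 and 11.68 in the arrays numbered 3, against 10.48 to 11.18 with a median of 10.95 in the others (0.70 ± 0.13, adjusted p = 0.0348, but 0.0517 with the block), with no overlap. Fbn1 (fibrillin 1, of elastic microfibrils) had 8.24, 8.02 and 8.79 in the arrays numbered 3, against 8.60 to 9.17 in the others (-0.57 ± 0.10, adjusted p = 0.0295), and WT_VAS array 3 lay within the range of the others. The list's median of -0.0006 turned to 0.04 after cyclic loess. The 44 collagen genes, grouped by name, had a median of 0.02 (0.04 after cyclic loess).

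Mitochondrial and energy genes had small median differences. Their calls are given beside 3.4% called of all genes, 2.05% higher and 1.35% lower. Mdh2 (mitochondrial malate dehydrogenase) had 13.64, 13.66 and 13.63 in the arrays numbered 3, against 13.91 to 14.02 in the others (-0.33 ± 0.05, adjusted p = 0.0267). Idh3a (a subunit of NAD-dependent isocitrate dehydrogenase) had 12.65, 12.65 and 12.49 in the arrays numbered 3, against 12.80 to 12.998 in the others (-0.31 ± 0.06, adjusted p = 0.0388, but 0.0621 with the block). Both fell with no overlap, the only calls among 41 glycolysis and citric acid cycle genes, whose median of -0.05 turned to 0.03 after cyclic loess. Ndufs4, a subunit of complex I, rose by 0.41 (adjusted p = 0.0415, but 0.0626 with the block) with overlap, the single call among 53 oxidative phosphorylation genes, whose median of -0.05 turned to 0.03. Of 37 fatty acid oxidation genes 0 were called by limma. At an unadjusted p under 0.05, 0 were higher and 4 lower, beside 14.4% and 10.4% of all genes. Elovl5 (a fatty acid elongase) and Stard4 (a cholesterol carrier) fell by 0.29 each (adjusted p = 0.0324 and 0.0387, but 0.0544 and 0.061 with the block), the calls among 33 cholesterol and lipid synthesis genes, whose median was -0.06 (-0.03 after cyclic loess).

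**Figure D4:**
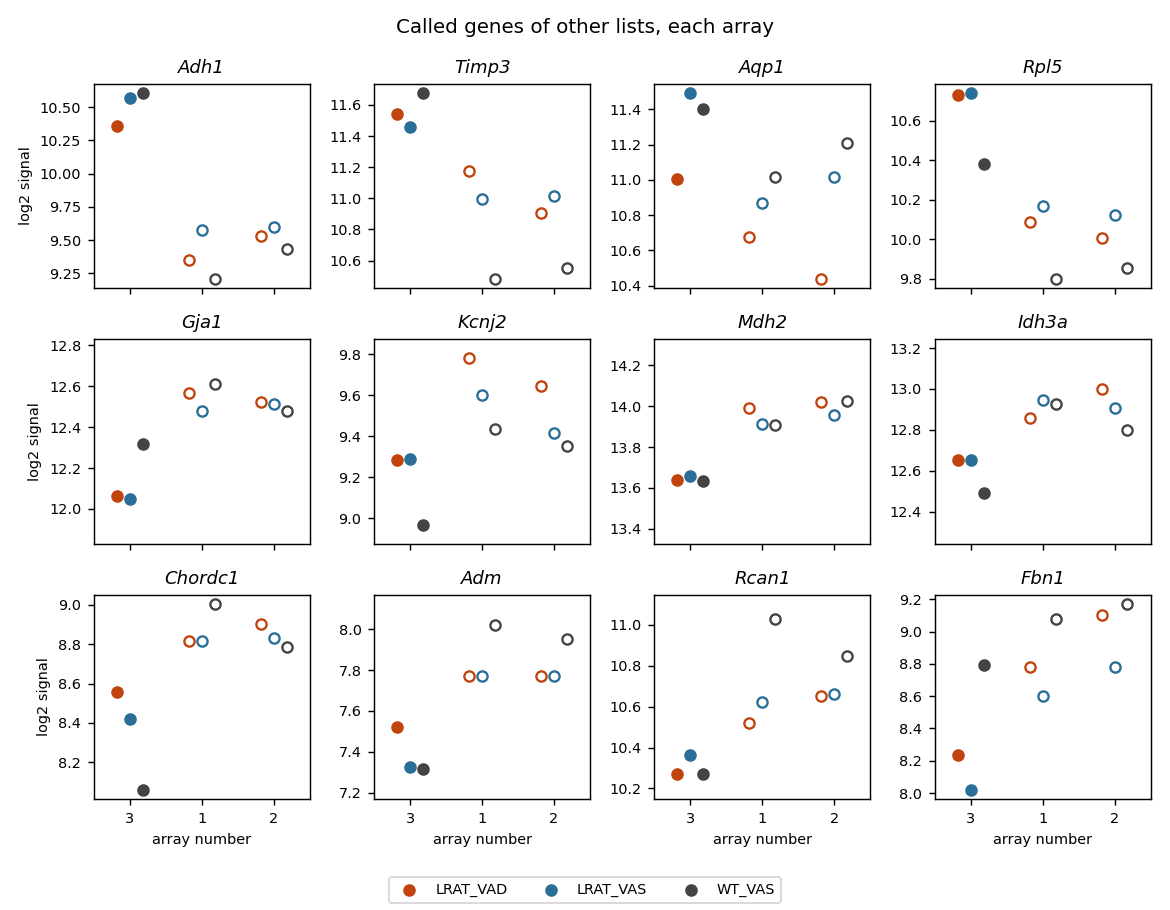
Log2 signal (y axis) of 12 called genes of other lists in each array, by array number (x axis, number 3 at the left) and coloured by group, with filled points for number 3. The filled points lie above the open points of their own group for Adh1, Timp3, Aqp1 and Rpl5 and below them for the other 8 genes.

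In protein turnover, Atg5 and Atg12, which are joined to each other during autophagosome formation, fell by 0.43 and 0.32 (adjusted p = 0.0473 and 0.0463, but 0.052 and 0.0655 with the block). They were the 2 calls among 33 autophagy and lysosome genes, beside 3.4% called of all genes. The list's median of -0.05 turned to 0.01 after cyclic loess. Psmb2, a proteasome core subunit, fell by 0.37 (adjusted p = 0.0293), the single call among 38 proteasome and ubiquitin genes, with a median of -0.09 (-0.01 after cyclic loess). Of the 37 Ube2 ubiquitin-conjugating genes, grouped by name, 1 was called higher and 4 lower, with a median of -0.15 (-0.09 after cyclic loess). Over all genes, 2.05% were called higher and 1.35% lower. Rpl5 was the only call among 57 cytosolic ribosomal protein genes, whose other members lay on both sides of 0: Rps10 differed by -0.65 (adjusted p = 0.0509) and Rplp1 by 0.45 (adjusted p = 0.0739), both chosen after their values were seen. Mcm4, a replicative helicase subunit, fell by 0.31 (adjusted p = 0.0437, but 0.066 with the block), the single call among 41 cell cycle genes.

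Markers of the cell types that a piece of right ventricle can hold gave 6 calls over 15 lists. The lists held 12 to 24 measured genes each, and 3.4% of all genes were called. Of the 6 calls, 1 was Aldh1a2, which is also in the mesothelial list. Aqp1, the water channel of endothelium, rose, with 11.01, 11.49 and 11.40 in the arrays numbered 3, against 10.44 to 11.21 in the others (0.43, adjusted p = 0.0382, but 0.0575 with the block). Its sets overlap across groups and not within them. The 24 endothelial markers had a median of 0.09 (0.14 after cyclic loess), with Flt1 at 0.26 (adjusted p = 0.0519) and Kdr, the other main VEGF receptor gene, at -0.23 (adjusted p = 0.0791), both chosen after their values were seen. The remaining calls were of genes with signals below 7.19, the median level of all genes. Adipoq, the fat cell hormone adiponectin, had 5.37, 5.35 and 5.37 in the arrays numbered 3, against 4.95 to 5.02 in the others (0.37). Ighm, the immunoglobulin M heavy chain, had 4.36, 5.63 and 4.52 in the arrays numbered 3, against 3.59 to 3.95 in the others (1.12). The skeletal muscle genes Myod1 and Myh4 rose by 0.38 and 0.25, the call of Myh4 being lost with the block (adjusted p = 0.0712). Over the 9 arrays Myod1 read 6.65 to 7.17 and Myh4 6.24 to 6.66. The median of the negative controls was 5.57, above every Adipoq signal and below every Myod1 and Myh4 signal.

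The defining markers of ventricular muscle, fibroblasts and smooth muscle gave 0 calls by limma. Over all genes, 14.4% were higher and 10.4% lower at an unadjusted p under 0.05. At that threshold there were 1 higher and 3 lower of 18 ventricular markers and 0 higher and 6 lower of 23 fibroblast markers. There were 2 higher and 1 lower of 18 smooth muscle and pericyte markers. The medians of these lists, in that order, were -0.02, -0.08 and 0.09, which became 0.06, -0.01 and 0.14 after cyclic loess. The mean level, centred on each gene, of the fibroblast list was -0.20 to 0.08 in the arrays numbered 3 and -0.13 to 0.29 in the others. Erythroid markers differed by 0.31 in LRAT_VAD, -0.23 in LRAT_VAS and -0.22 in WT_VAS, with levels of -0.45 to 0.32 in the arrays numbered 3 and -0.08 to 0.14 in the others. Among markers of neighbouring tissue, Myl7 (atrial light chain) was highest in LRAT_VAD array 3 at 8.05, with a lowest reading of 6.57, and Sftpc (lung surfactant protein C) was at 5.05 to 5.31 in all arrays, below the median of the negative controls.

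**Figure D5:**
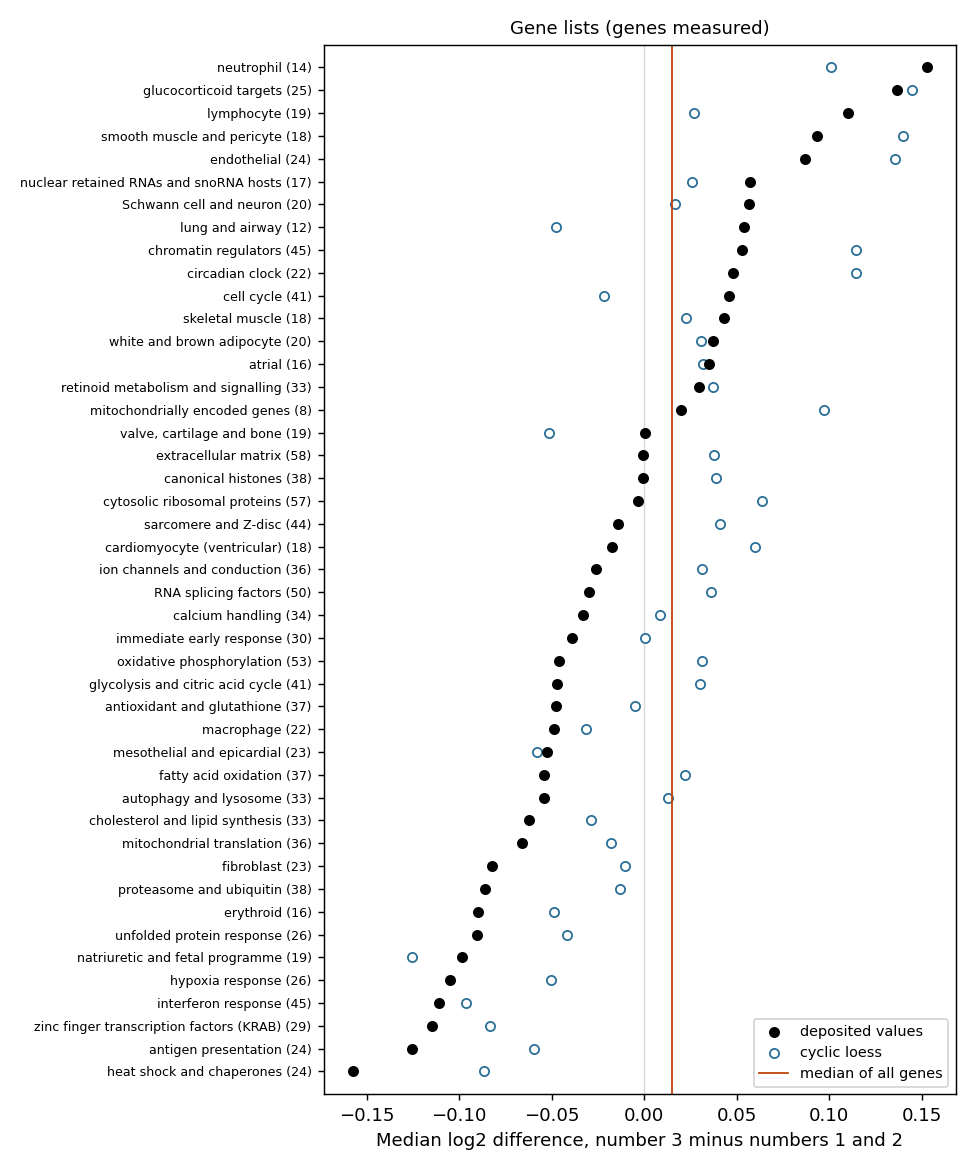
Median log2 difference, arrays numbered 3 minus arrays numbered 1 and 2 (x axis), of each of 45 gene lists (y axis), with filled black points for the deposited signals, hollow blue points after cyclic loess and a red line at 0.01, the median of all genes. On the deposited signals 28 medians are below 0 and 17 above, and after cyclic loess 18 are below and 27 above.

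Over the 45 lists, 1257 genes were measured, of which 15 were called higher and 19 lower, 2.70% against 3.4% of all genes. A called member was present in 24 lists and absent from 21. The sign of the median turned under at least 1 of the scalings in 16 lists. The heat shock, hypoxia, interferon and natriuretic lists kept a median below 0, and the glucocorticoid, circadian, endothelial and smooth muscle lists one above 0, under each scaling run. Keeping the sign was not particular to these lists. The KRAB zinc finger and antigen presentation lists also stayed below 0, and the chromatin regulator and neutrophil lists above 0, among others.

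Most genes called higher were dim. Of the 452, 306 (67.7%) lay below the median of the negative controls, as did 18.4% of all genes, and 34 lay above their 95th percentile. Of the 298 called lower, 6 (2.01%) lay below that median and 194 above the 95th percentile. Of all 22061 genes, 6677 lay above that percentile. The median signal was 4.83 for genes called higher and 8.92 for genes called lower. Sensory receptor genes were among the dim ones: 87 of 1107 olfactory receptors were called higher and 1 lower, and 29 of 228 vomeronasal receptors were called higher and 0 lower, beside 2.05% higher and 1.35% lower of all genes. Their medians were 0.16 and 0.20 and became 0.03 and 0.05 after cyclic loess. Of 307 microRNA precursors 24 were called higher and 0 lower (median 0.14, and 0.04 after cyclic loess). Among 43 beta-defensins 5 were called higher and 0 lower, with a median of 0.21 that became 0.11 after cyclic loess.

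The median GC content was 43.3% for genes called higher, 60.7% for genes called lower and 57.3% for all, but among genes with a mean log2 signal of at least 7 it was 60.0%, 60.7% and, for genes not called, 61.3%. The ETS core CGGAAG, counted on both strands, was held by 7.82% of promoters of genes called higher, 35.8% of those called lower and 22.4% of all. The TATA box TATAAA, counted on both strands, was held by 26.4% of promoters of genes called higher, 6.67% of those called lower and 12.5% of all. Among genes with a mean log2 signal of at least 7, the TATA box was held by 14.9% of 47 promoters of genes called higher, 6.25% of 224 called lower and 7.28% of 8793 not called, and the ETS core by 17.0%, 36.6% and 30.9%. The part of brightness in these shares was not tested beyond that split.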

How the data were processed

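RNA of 9 right ventricle samples was read on 9 Affymetrix whole-transcript arrays, 3 in each of 3 groups. The log2 signals were deposited by the authors after RMA, with R 3.1.2 and mm8 named in the submitters' processing notes. The authors' deposited table of an analysis of variance holds sums of squares, used as a score per probe set. In the annotation file as deposited, 9 value columns match no sample and were not used.

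Probe sets numbered 35556. Controls (6546), unnamed ones (3543) and 2 with several symbols were left out, 25465 had 1 symbol, and the brightest of each gene gave 22061 genes. Names came from the deposited annotation, updated through RefSeq for 22115 probe sets by accession, 1815 by symbol and 625 by synonym. The control probe sets are labelled only negative or positive, where antigenomic ones had been planned for.

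The model of group and number 3 was fitted with limma 3.58.1 in R 4.3.3 over all genes, with 5 residual degrees of freedom, and tested on simulated data. Exact permutation tests within groups used scipy 1.17.1. Deviations from group means correlated at 0.138 to 0.391 between samples of the same number in all 9 pairs, and at -0.365 to 0.223 between different numbers in 18 pairs. The ranges overlap, as LRAT_VAD array 2 correlated at 0.223 with WT_VAS array 1 and at 0.175 with WT_VAS array 2. Deviations sum to 0 within each group, so a shared number 3 difference also moves the other pairs. Pairing of numbers 1 and 2 is therefore not shown, and no label states it. Named genes were the 20 called genes of each direction with the largest difference and array 3 outside its group in all groups, up to 4 called genes of each list and the 2 of lowest p in lists without calls. Predicted genes, sensory receptors and unnamed small RNAs were counted and not named. Some genes that meet this rule are not reported here. The split by number, the members and the lists were chosen with earlier results of these data known. Lists held 1305 genes, of which 1257 were measured.

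The alternatives were other scalings, filters on dim genes, summaries of probe sets, variance models, the array number as a block, no group term, numbers 1 or 2 alone, and each array left out.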

Additional observations from a re-analysis of the deposited data

Results flagged for a closer look

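Dixon's test at the 95% level was run on the 6 arrays numbered 1 or 2 for each of the 106 named genes. In 10 genes, 1 array lay far from the other 5. The test took the 6 values without removing the means of the 3 groups. Differences between groups enter it, so its chance rate of about 1 in 20 need not hold. WT_VAS array 1 was the highest for Mospd2, at 8.49 with the next array at 7.89, and for Atg5, at 8.56 with the next at 8.25. It was the lowest for Camp, at 6.62 with the next at 6.78, and for Slc25a37, at 8.34 with the next at 8.48. WT_VAS array 2 was the highest for Plin2, at 10.76 with the next at 10.43, and for Trim30a, at 8.75 with the next at 8.45. It was the lowest for Myh4, at 6.24 with the next at 6.32, and for Arrdc2, at 7.19 with the next at 7.46. LRAT_VAD array 2 was the lowest for H2bu2, at 6.39 with the next at 6.48, and LRAT_VAS array 1 for Mybphl, at 6.25 with the next at 6.55. Of these, Mospd2, Atg5, Myh4 and Arrdc2 were called between arrays numbered 3 and the others.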

How the results depend on the processing

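The count of called genes was the least stable result, 750 on the deposited signals (452 higher, 298 lower). It was 116 (20 and 96) among 6677 genes above the 95th percentile of the negative controls and 144 (53 and 91) among 17992 above their median, a filter chosen after seeing the data. It was 8 (7 and 1) with array weights, 61 (35 and 26) after quantile normalization and 38 (22 and 16) after cyclic loess. Against numbers 1 alone it was 1 (1 and 0) and against numbers 2 alone 3 (1 and 2), with fewer arrays by construction. With the array number as a block, a model that treats samples of the same number as paired, it was 311 (196 and 115), and 41 of the 65 named calls were kept. Leaving out each array in turn gave 2 to 1184 calls, 2 to 557 higher and 0 to 627 lower. The count stayed within 1.5 times of 750 with a variance trend (715), robust moderation (696), no group term (1048), centred arrays (760, split 560 and 200) and mean probe sets (735). Array 3 outside its group in all groups was met by 1600 genes after the stricter filter. An unadjusted p under 0.05 was reached by 3222 to 6005 genes in the settings that tested all 22061. No named call changed sign in any setting, which was fixed in advance where arrays were only left out or reweighted. Of the uncalled named genes, the mitochondrial COX2 and COX1 reversed to -0.017 and -0.016 without LRAT_VAD array 3, over ranges of -0.017 to 0.136 and -0.016 to 0.107 with 1 array left out. The causes were not tested where the setting itself does not remove samples or genes. Signal near the negative controls limits what can be read for dim genes.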
